A study of Mus musculus with 6 samples.

Results

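The genes of the TGF-beta and SMAD pathway examined here were Tgfb1, Tgfbr1, Tgfbr2, Smad2, Smad3, Smad4, Smad7, Ski, Skil and Smurf2, 10 genes of the 78252 in the annotation. A peak of open chromatin was assigned to one of them when its summit lay within the gene body or within 3 kb of an annotated transcription start (GENCODE release M39, mouse genome build GRCm39). Peaks of the 6 libraries that overlapped by at least 1 bp were merged into 62876 regions on the 21 main chromosomes, of which 55 belonged to the 10 genes. The assay was ATAC-seq, which uses the transposase Tn5 to tag accessible DNA, on unsorted leukocytes of peripheral blood taken from male C57BL/6j mice and freed of red cells. The control group (3 libraries) was kept at normal oxygen throughout, and the HADA group (high-altitude de-acclimatization, 3 libraries) had been returned to normal oxygen after a stay in a hypobaric chamber. No transgene or agent is named for these mice. The study's methods state the age of the mice at purchase, the simulated altitude and the length of the stay, and the time between the return and the sampling of these libraries is not given in the sources used here. Nothing in the labels says that the libraries of a group came from separate mice, so p-values measure the spread between these libraries, which may be technical.

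TGF-beta1 is secreted in a latent form and, once active, binds the type II receptor TGFBR2, which phosphorylates the type I receptor TGFBR1. The type I receptor phosphorylates SMAD2 and SMAD3, which join SMAD4 and enter the nucleus to act on target genes, while SMAD7, the ubiquitin ligase SMURF2 and the corepressors SKI and SKIL restrain the signal. In blood leukocytes the pathway is known for limiting T cell activation and for the induction of Foxp3 in regulatory T cells.

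The libraries held 34045 to 41475 peaks in the control group and 44044 to 45799 in the HADA group on the main chromosomes. The read totals are unknown, and the height of a peak is given here as the pileup at its summit (the number of overlapping sequenced fragments or reads) divided by the median pileup of the regions with a peak in all 6 libraries, so that the library's typical shared region stands at 1. The marker genes of blood cell types differed between the groups. The heights of the 8 B cell markers summed to 7.48, 5.87 and 1.43 in the controls, below the 15.2, 15.7 and 15.4 of the HADA group. Those of the 10 neutrophil markers summed to 8.71, 7.58 and 18.8 in the controls, above the 4.22, 3.17 and 2.56 of the HADA group, with no peak at Camp in any library. The 8 monocyte markers summed to 8.8 to 10.8 in the control and 5.68 to 6.26 in the HADA libraries, the 10 T cell markers to 10.9 to 14.2 and 12.1 to 12.5, and the 5 regulatory T cell markers to 3.93 to 4.41 and 4.95 to 5.41. The 6 NK cell markers summed to 0.429 to 1.16 and 1.07 to 1.54 with no peak at Klrk1, the 6 eosinophil and basophil markers to 1.14 to 1.43 and 1.68 to 2.04 with none at Ccr3, Epx and Mcpt8, the 7 erythroid and platelet markers to 0.347 to 0.764 and 1.01 to 1.2 with none at Hba-a1, Alas2 and Gp9, and the 4 markers of all leukocytes to 16.2 to 27.3 and 13.5 to 15.8. The groups did not overlap for 7 of the 9 lists, all but the T cell and NK cell lists (exact permutation test, two-sided, p = 0.1 for each, the smallest that 3 against 3 allows). For comparison, the groups did not overlap in 29.3% of single shared regions in the higher direction and in 31.2% in the lower. The library control 3 stood apart, with the highest neutrophil sum, the lowest B cell sum and the fewest peaks. In these mixed cells a change in the share of a cell type and a change in accessibility per cell cannot be told apart, and the part of the marker shift in each result below was not tested.

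**Figure D1:**
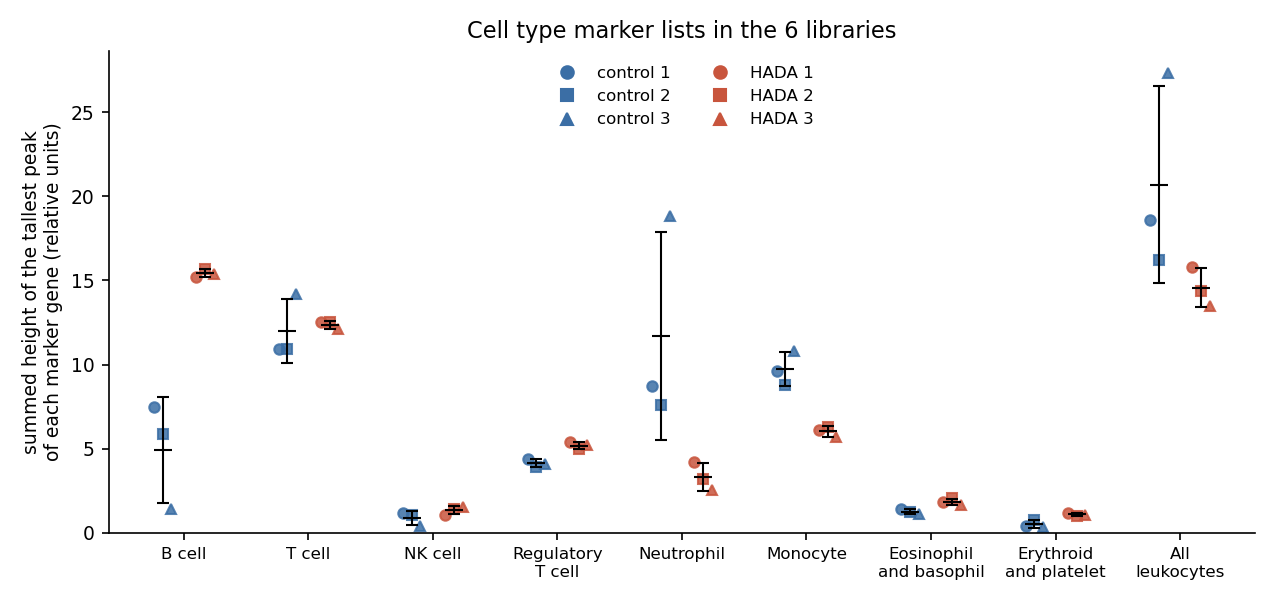
Summed height of the tallest peak of each marker gene (y axis, units of the library's median shared region) for 9 marker lists (x axis), with each library as a point and the group mean ± SD as a black bar (n = 3 libraries). The B cell markers sit at 15.2 to 15.7 in the HADA libraries and at 1.43 to 7.48 in the control libraries, and the neutrophil markers lie the other way.

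Of the 55 regions of the pathway genes, 23 had their summit within 3 kb of a start of the gene (start regions) and 32 lay further inside the gene (distal regions). Smad3 held the most regions, 14, followed by Tgfbr2 with 10 and Ski with 9, and Tgfbr1 held 1. The control libraries had 42, 38 and 38 peaks at the 10 genes and the HADA libraries 45, 43 and 43. Set against all peaks this was 10.2 ± 0.971 per 10000 in the control and 9.76 ± 0.373 in the HADA group (mean ± SD, n = 3 libraries each), a difference of -0.407 that was within the spread (exact permutation test, two-sided, p = 0.7). A peak was present in all 6 libraries for 30 of the 55 regions, or 54.5%, against 38.1% of all regions. Of the other 25, 4 had a peak in all 3 libraries of a single group and in no further library, 14 in 2 to 5 libraries of other combinations and 7 in 1 library.

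Heights of these 30 shared regions were compared with limma on the log2 pileup, fitted on all 23970 shared regions with Benjamini-Hochberg adjustment. At an adjusted p below 0.05, 6 of the 30 (20%) were higher in HADA and 4 (13.3%) were lower. Over all shared regions 17.9% were called higher and 24.1% lower, so that the share of pathway regions called higher was near that of the genome at large and the share called lower was under it. The median log2 difference of the 30 regions was -0.07, and that of all shared regions was -0.04. With each library centred on its median ratio to the mean of the region over the libraries, a centring added after the values had been seen, 5 and 4 of the 30 were called, beside 17.9% and 21.1% of all shared regions. The groups did not overlap in 7 of the 30 regions in the higher and 5 in the lower direction, beside 29.3% and 31.2% of all shared regions. Without the library HADA 2, limma called 0 of the 30 regions higher and 0 lower (5 and 4 at an unadjusted p below 0.05), while over all shared regions the calls fell to 2.99% and 8.21%. The 10 log2 differences then ranged from -1.42 to 1.11 with their signs kept, at adjusted p of 0.0508 to 0.135. Without HADA 3 the counts were 2 and 0 (6.85% and 15.7% over all), and without HADA 1 they were 2 and 3 of 31 tested (7.6% and 14.5%). Without control 3, 33 pathway regions were tested, with 3 called higher and 5 lower (17.6% and 21.6%). The 3 higher include region 4 of Smad7, which is not among the 30. The 5 lower include region 6 of Ski, which the main fit did not call. Without control 2 the counts were 3 and 4 (14.5% and 22.4%). Of the 6 fits that each left out 1 library, region 8 of Tgfbr2 and region 7 of Ski kept their call in 5, region 10 of Tgfbr2 and regions 4 and 9 of Smad3 in 4, region 6 of Smad3 in 3, region 5 of Tgfbr2 in 2, region 10 of Smad3 and region 9 of Ski in 1, and region 1 of Tgfb1 in 0. When each region was instead scored by the rank of the deposited fold enrichment within its library, limma called 1 region (Ski region 7) higher and 0 lower (4 and 4 at an unadjusted p below 0.05), beside 6.57% and 4.78% of all shared regions.

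Only 1 of the 14 shared start regions was called, against 32.3% of all shared regions near starts. For all regions a start of any gene counted, for the pathway regions only a start of their own gene. Of the 16 shared distal regions 9 were called, 5 higher and 4 lower, against 58% of all shared distal regions, of which 14.2% were higher and 43.8% lower. Regions are numbered from the 5′ end of each gene. Sequences are shown for part of the start region of Tgfb1 and for Smad3 region 5, found in 1 group only. They are also shown for the 5 other called regions with the smallest p that lie outside untranslated exons. The regions of Smad2, Smad4 and Smad7 are described by position only. For Tgfb1 the bases shown end before the summit where its height was measured. Each sequence is the plus strand of GRCm39. Capitals mark matches to the short motifs listed with the sequence features at the end of this text. These are CAGAC or its complement for SMAD proteins, GGGCGGG for SP and KLF factors, TGTGGTT for RUNX, TGANTCA for AP-1 and CACGTG for E-box factors.
Tgfb1 region 1, the 195 bases before the first annotated start, chr7:25386195-25386389: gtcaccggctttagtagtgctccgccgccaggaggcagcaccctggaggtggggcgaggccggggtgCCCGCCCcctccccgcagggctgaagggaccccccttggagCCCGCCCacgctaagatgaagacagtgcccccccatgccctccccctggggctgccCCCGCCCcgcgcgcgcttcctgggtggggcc
Tgfbr2 region 5, intron, chr9:115974284-115974583: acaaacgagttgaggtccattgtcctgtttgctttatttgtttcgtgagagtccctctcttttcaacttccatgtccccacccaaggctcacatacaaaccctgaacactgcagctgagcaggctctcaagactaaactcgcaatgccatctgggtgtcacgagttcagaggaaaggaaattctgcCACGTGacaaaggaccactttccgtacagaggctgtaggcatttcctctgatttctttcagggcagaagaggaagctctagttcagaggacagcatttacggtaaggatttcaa
Tgfbr2 region 8, intron, chr9:115952061-115952360: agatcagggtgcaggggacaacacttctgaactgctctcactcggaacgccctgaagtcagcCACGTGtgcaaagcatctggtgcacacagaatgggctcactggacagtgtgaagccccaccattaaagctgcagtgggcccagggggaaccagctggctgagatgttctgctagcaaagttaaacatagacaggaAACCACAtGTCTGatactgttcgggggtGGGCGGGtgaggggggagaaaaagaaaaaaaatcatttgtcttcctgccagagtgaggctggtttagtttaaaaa
Smad3 region 4, intron, chr9:63645078-63645377: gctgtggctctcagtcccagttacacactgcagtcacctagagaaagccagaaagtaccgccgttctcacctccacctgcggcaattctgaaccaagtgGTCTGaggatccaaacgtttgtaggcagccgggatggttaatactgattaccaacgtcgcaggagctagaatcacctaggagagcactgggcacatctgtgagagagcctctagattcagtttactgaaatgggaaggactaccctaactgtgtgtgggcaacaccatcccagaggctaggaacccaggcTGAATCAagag
Smad3 region 5, intron, found in the control group only, chr9:63639878-63640177: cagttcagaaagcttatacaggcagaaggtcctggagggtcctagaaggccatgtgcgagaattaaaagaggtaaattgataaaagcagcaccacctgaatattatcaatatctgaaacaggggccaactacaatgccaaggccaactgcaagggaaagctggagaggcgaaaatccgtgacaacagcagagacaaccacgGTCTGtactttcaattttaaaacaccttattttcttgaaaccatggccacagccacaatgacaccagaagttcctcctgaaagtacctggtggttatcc
Smad3 region 9, intron, chr9:63623515-63623814: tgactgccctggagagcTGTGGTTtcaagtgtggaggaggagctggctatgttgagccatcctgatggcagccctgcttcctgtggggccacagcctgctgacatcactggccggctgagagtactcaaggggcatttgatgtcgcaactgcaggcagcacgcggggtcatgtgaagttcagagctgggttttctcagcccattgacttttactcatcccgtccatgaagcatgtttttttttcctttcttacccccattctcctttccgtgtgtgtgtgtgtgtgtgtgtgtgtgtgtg
Ski region 7, intron, chr4:155262886-155263185: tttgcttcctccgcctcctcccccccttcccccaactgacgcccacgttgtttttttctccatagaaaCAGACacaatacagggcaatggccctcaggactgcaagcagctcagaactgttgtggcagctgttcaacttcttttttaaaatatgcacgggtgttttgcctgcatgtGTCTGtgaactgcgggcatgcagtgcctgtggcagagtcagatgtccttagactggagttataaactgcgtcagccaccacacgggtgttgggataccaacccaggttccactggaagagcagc

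Tgfb1, the gene of the ligand, held 2 regions, both near starts and both with a peak in every library. Region 1 (chr7:25386195-25387250) has its summit 92 bp after the 5′ end of the gene, in an untranslated exon. It measured 2.74, 2.64 and 2.98 in controls against 4.4, 3.44 and 3.98 in HADA. Every HADA library lay above every control library. The log2 difference was 0.49 ± 0.17 (SE), a 1.41-fold higher height, and it passed the threshold narrowly (limma, adjusted p = 0.0482). It did not pass when any 1 of the 6 libraries was left out (adjusted p = 0.0558 to 0.179) or by fold rank (adjusted p = 0.284). Region 2 (chr7:25388300-25389222), with its summit 2395 bp into the gene and 433 bp from an alternative start, measured 2.36, 1.47 and 1.57 against 2.22, 2.48 and 2.58. Its groups overlapped through control 1, and the log2 difference of 0.46 ± 0.22 was not called (adjusted p = 0.121). It was called without control 1 (0.68, adjusted p = 0.0235) and with the pileup divided by the genome background of the library (0.84, adjusted p = 0.0145).

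**Figure D2:**
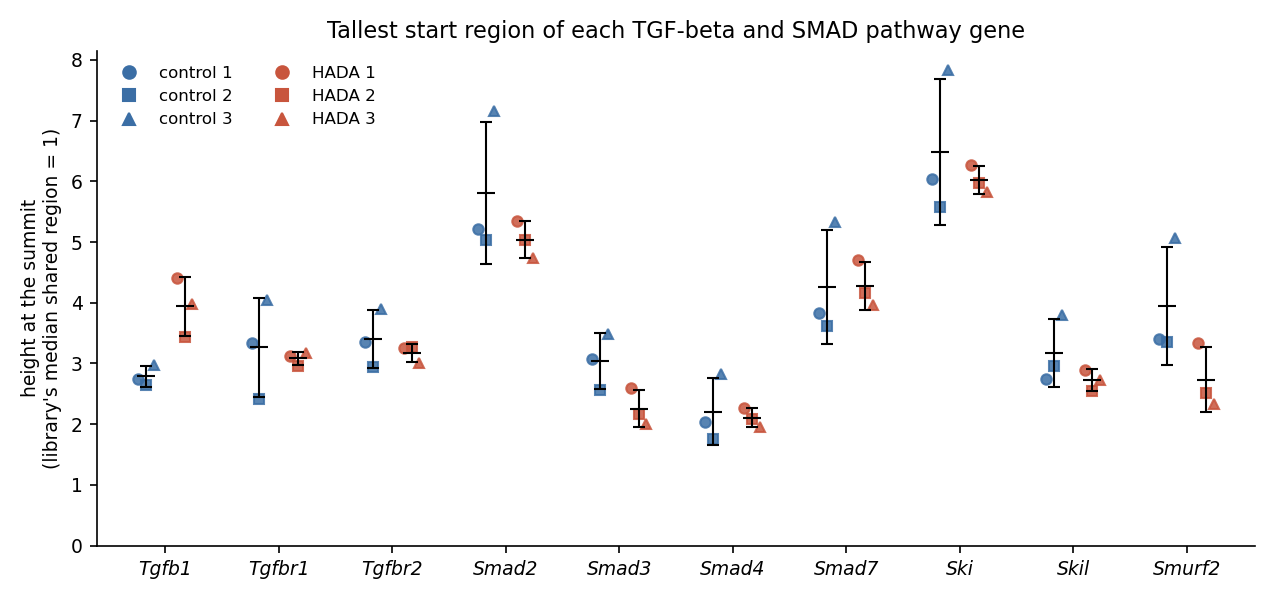
Height at the summit of the tallest start region of each of the 10 genes (y axis, the library's median shared region is 1), with each library as a point and the group mean ± SD as a black bar (n = 3 libraries). Tgfb1 is the one gene whose start region was called, at 2.64 to 2.98 in the control and 3.44 to 4.4 in the HADA libraries, and control 3 is the highest library at each of the other 9 genes.

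Of the receptor genes, Tgfbr1 carried a single region at its start (chr4:47352506-47353792), with heights of 3.34, 2.42 and 4.04 in the control and 3.12, 2.96 and 3.17 in the HADA libraries. The groups overlapped and the log2 difference was -0.05 ± 0.22 (adjusted p = 0.86). The start region of Tgfbr2 (region 2, chr9:116003101-116005106) measured 3.36, 2.95 and 3.9 against 3.25, 3.27 and 3.01, a log2 difference of -0.09 ± 0.17 (adjusted p = 0.697).

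Inside Tgfbr2 the regions moved in opposite directions. Region 8 (chr9:115951633-115952666, intron, 52589 bp from the 5′ end) measured 0.724, 0.6 and 0.367 in controls against 1.1, 1.35 and 1.22 in HADA. Its log2 difference of 1.17 ± 0.26 (2.25-fold, adjusted p = 0.0141) was the largest rise among the 30 regions. Without control 3, its lowest library, the difference was 0.84 (adjusted p = 0.0129). Region 5 (chr9:115974052-115975428, in an intron of Tgfbr2 and over an exon of the noncoding gene Gm31292) measured 1.05, 0.891 and 0.796 against 1.68, 1.26 and 1.57, a log2 difference of 0.72 ± 0.19 (adjusted p = 0.0224). It was not called in 4 of the 6 fits with 1 library left out (adjusted p = 0.0193 to 0.0849) or by fold rank (adjusted p = 0.504). Region 10 (chr9:115912752-115914092), at the 3′ end of the gene with its summit in the 3′ untranslated exon, measured 4.1, 3.65 and 9.33 in controls against 2.47, 1.51 and 1.49 in HADA. All HADA libraries were lower than all controls, and control 3 was far above the other libraries. It fell by 1.55 ± 0.38 (adjusted p = 0.0171) and by 1.18 without control 3 (adjusted p = 0.0158). The intronic region 3 did not differ by the test (0.17 ± 0.25, adjusted p = 0.599).

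The other 5 regions of Tgfbr2 had peaks in some libraries only. Region 6 (chr9:115967507-115968999) had pileups of 51, 65 and 62 in the HADA libraries, and of the control libraries only control 3 listed it, at 10. Region 9 was listed in all HADA libraries, at 54, 29 and 36, and in control 1 at 20. Region 1, upstream of the gene, was listed in control 3 alone at 105, region 7 in HADA 2 alone at 32, and region 4 in control 1 and HADA 3 at 8 and 13.

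**Figure D3:**
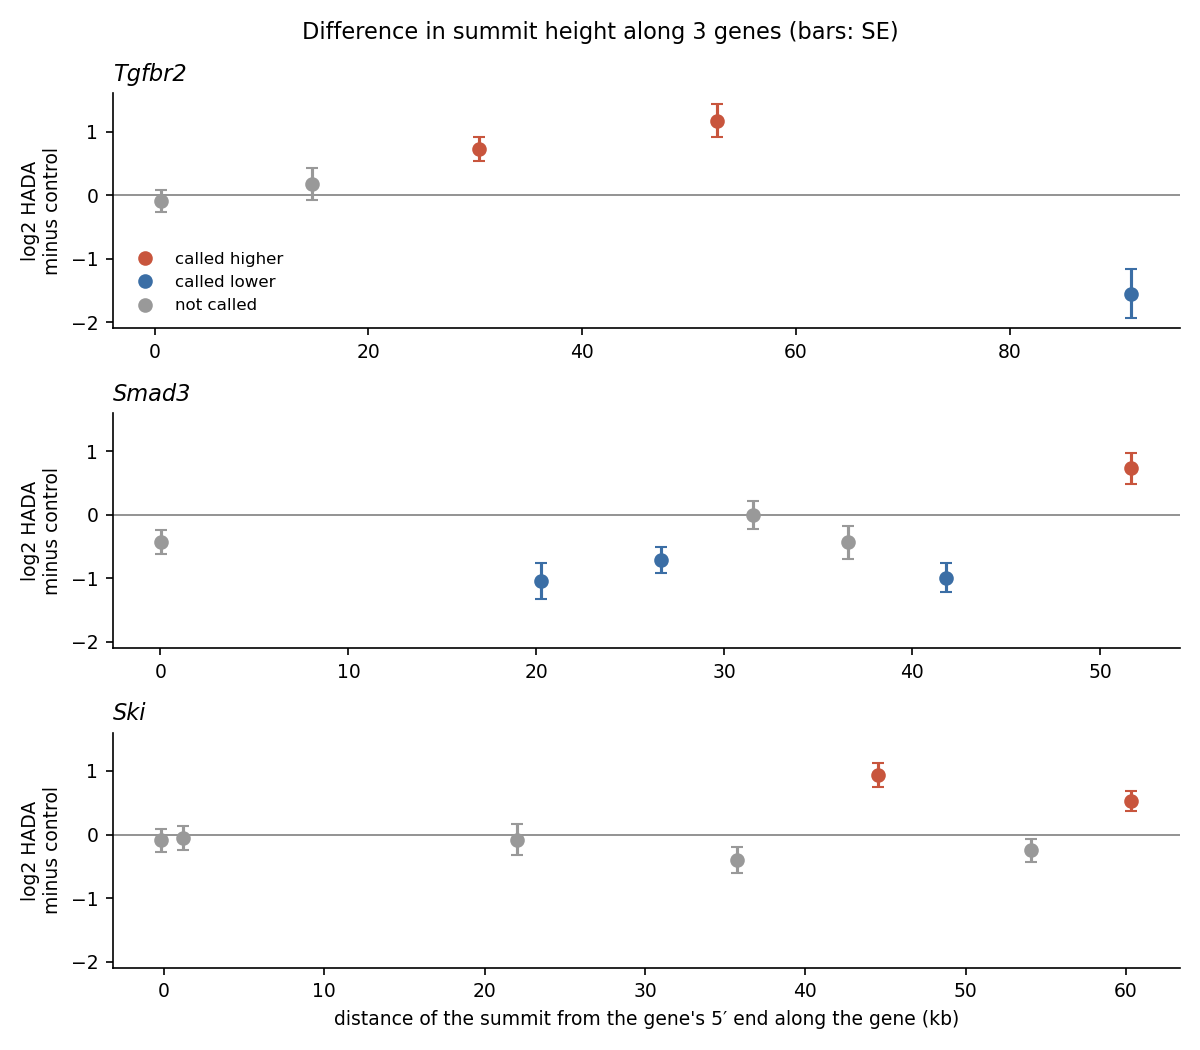
Log2 difference in height, HADA minus control, of the shared regions of Tgfbr2, Smad3 and Ski (y axis, bars are ± 1 SE of the limma fit on 3 libraries a group) against the distance of the summit from the 5′ end along the gene (x axis, kb). Tgfbr2 and Smad3 each hold regions called higher and regions called lower, from -1.55 to 1.17 in Tgfbr2, while the regions at the 5′ ends were not called.

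Among the receptor-activated SMAD genes, Smad2 was accessible mainly at its start (chr18:76374016-76375396), with heights of 5.22, 5.04 and 7.16 in the control and 5.35, 5.04 and 4.73 in the HADA libraries (log2 difference -0.19 ± 0.19, adjusted p = 0.45). An intronic region of Smad2 (region 2, chr18:76381250-76381822) was listed in the 3 HADA libraries and in no control library, with low pileups of 15, 16 and 15. At the same relative height and background its expected pileups in the control libraries were 10, 10 and 9. These pass the peak threshold but lie close to the lowest pileups listed there (7, 8 and 8), so a listing was not certain. Regions 3 and 4 of Smad2 were equally low, with pileups of 10 to 15 wherever they were listed.

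Smad3 had 4 of its 7 shared regions called, 1 higher and 3 lower, beside 17.9% and 24.1% of all shared regions. The 7 include its start region. All 4 called regions were distal, a class in which 58% of all shared regions were called. Its start region (chr9:63664230-63666776) measured 3.07, 2.56 and 3.49 in the control and 2.6, 2.16 and 2.01 in the HADA libraries, a log2 difference of -0.43 ± 0.19 that was not called (adjusted p = 0.104). Region 4 (chr9:63644715-63646398), the tallest distal region of the gene, measured 4.95, 4.35 and 8.88 against 3.28, 2.7 and 2.47. It fell by 1.04 ± 0.28 on the log2 scale (adjusted p = 0.0235), and by 0.78 without control 3 (adjusted p = 0.0192). Region 9 (chr9:63623175-63623894) measured 1.47, 1.16 and 1.94 against 0.88, 0.74 and 0.642. It fell by 0.99 ± 0.23 (adjusted p = 0.0154). Region 6 (chr9:63638588-63639145) measured 1.16, 1.2 and 1.63 against 0.761, 0.753 and 0.901, and it fell by 0.71 ± 0.20 (adjusted p = 0.0244). When the pileup was divided by the genome background of the library in place of the median shared region, these 3 falls were -0.66, -0.62 and -0.33 and none was called (adjusted p = 0.0547, 0.0755 and 0.354). That scaling raised the median of all shared regions by 0.38 on the log2 scale. It called 9 of the 30 pathway regions higher and 1 lower, beside 31% and 18.3% of all shared regions. These calls held 1 region of Smad3, 3 of Tgfbr2, 2 of Ski, 2 of Tgfb1 and 2 of Smad7, of which region 2 of Tgfb1 and regions 3 and 5 of Smad7 were not called with the main scaling. With it, 62.8% of all calls over the genome were higher in HADA, against 42.7% with the main scaling, 56.1% with quantile normalisation and 57.9% by fold rank.

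Against these falls, region 10 of Smad3 (chr9:63613381-63614308, 51640 bp from the 5′ end) was higher in HADA. It measured 1.07, 0.727 and 0.592 in the control and 1.15, 1.43 and 1.28 in the HADA libraries, with control 1 close below HADA 1. The log2 difference was 0.73 ± 0.24 (adjusted p = 0.0415), and of the 6 fits with 1 library left out only the one without control 1 called it (0.49 to 0.98, adjusted p = 0.0132 to 0.135). It was not called by fold rank (adjusted p = 0.0973) or with the median ratio centring (0.77, adjusted p = 0.0502). Regions 7 and 8 were not called, at 0.00 ± 0.22 and -0.43 ± 0.26.

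Both regions found only in the control group belonged to Smad3. Region 5 (chr9:63639589-63640188) had pileups of 38, 33 and 52 in the control libraries, over a high local background of 15, 13.2 and 21.8. Region 14 (chr9:63585309-63585831) had pileups of 11, 15 and 17. At the same relative height and background both would have passed the peak threshold in all 3 HADA libraries. With peaks limited to a −log10 q of at least 5, 0 pathway regions were control-only and 3 HADA-only (2.1% and 8.59% of all regions), and with an equal number of peaks per library 0 were control-only and 0 HADA-only (4.47% and 5.84%). Region 3 of Smad3 was listed in HADA 2 and HADA 3, at 69 and 77, and region 11 in the same libraries at 16 and 18. Region 2, within 3 kb of an alternative start, was listed in 2 control libraries at 19 and 14 and in the HADA libraries at 44, 37 and 29. Region 12 was listed in control 1 and control 3 at 16 and 25 and in HADA 1 at 14, and region 13 in control 3 alone at 14.

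Of all 55 regions, 2 were HADA-only and 2 were control-only. Over all 62876 regions 7.01% were HADA-only and 1.88% control-only.

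**Figure D4:**
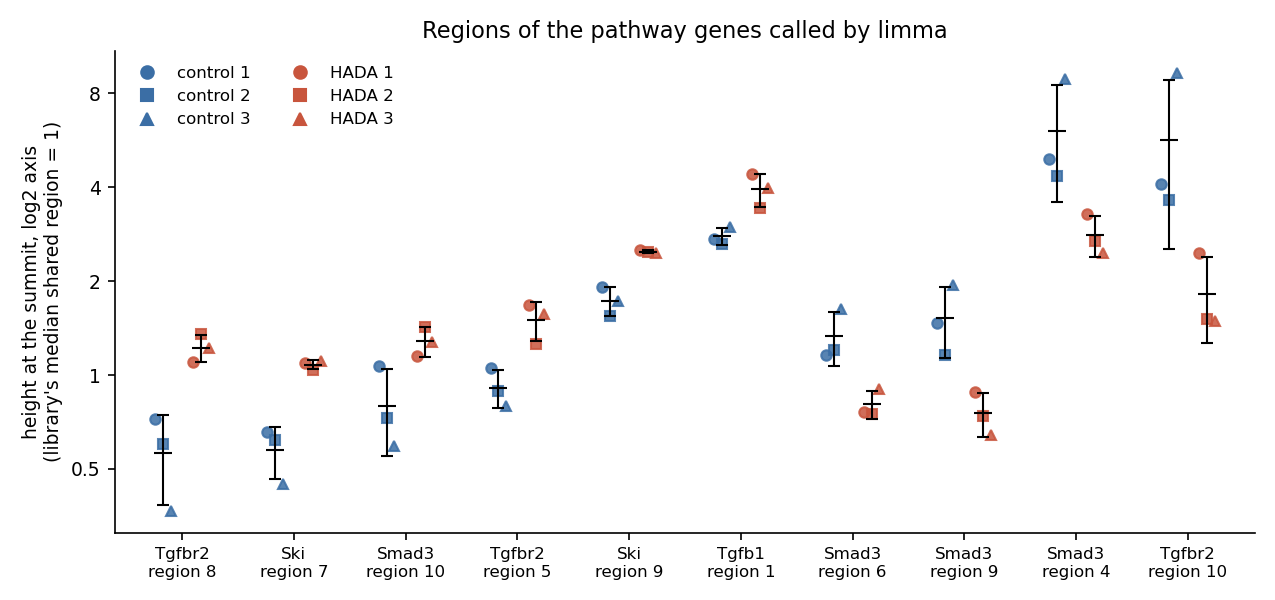
Height at the summit (y axis, log2 scale, the library's median shared region is 1) of the 10 called regions, ordered by their log2 difference, with each library as a point and the group mean ± SD as a black bar (n = 3 libraries). The 6 regions on the left are higher and the 4 on the right lower in every HADA library, and control 3 is the farthest control library from the HADA group in 8 of the 10.

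Smad4, the common partner, had a start region (chr18:73836640-73837413) of 2.03, 1.76 and 2.82 in the control and 2.27, 2.09 and 1.96 in the HADA libraries (log2 difference -0.04 ± 0.21, adjusted p = 0.895). The shared intronic region 3 of Smad4 was not called (-0.57 ± 0.32, adjusted p = 0.184). The 50 bases at its summit occur 43 times in the genome, and whether reads there could be placed was not tested; the summit sequences of all other 54 regions occur once. Of the other 4 regions of Smad4, 3 were listed in HADA 1 alone, and region 5, near an alternative start, in control 2 at 11 and in the HADA libraries at 17, 26 and 24.

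Smad7, the inhibitory SMAD, measured 3.83, 3.62 and 5.33 in the control and 4.71, 4.16 and 3.96 in the HADA libraries at its start (chr18:75499669-75501015; log2 difference 0.02 ± 0.20, adjusted p = 0.933). Region 4, an intronic region of Smad7 (chr18:75520171-75520958), had heights of 0.793 and 0.745 in control 1 and control 2, no peak in control 3, and 1.5, 1.47 and 1.72 in the HADA libraries. It could be fitted only without control 3, where it was called higher by 0.97 ± 0.15 (adjusted p = 0.00748). Region 2 (chr18:75502039-75503684) lay in an intron, with its summit at -14 bp from an alternative start of the gene. It was HADA-only, with pileups of 101, 78 and 87 over a local background of 50.2, 41 and 45.4. At the same relative height and background it would have been listed in 1 of the 3 control libraries. Regions 3 and 5 were not called, at 0.35 ± 0.18 and 0.42 ± 0.24, but both were called higher with pileup over background (0.73 and 0.80, adjusted p = 0.0329 and 0.0194).

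Ski, a corepressor that binds SMAD complexes, had the tallest start region of the 10 genes (chr4:155307489-155308226), at 6.03, 5.58 and 7.84 in the control and 6.27, 5.97 and 5.83 in the HADA libraries (log2 difference -0.09 ± 0.18, adjusted p = 0.709). Its tallest distal region, region 5 (chr4:155285092-155286154), measured 4.91, 4.11 and 7.35 against 5.53, 4.61 and 4.9 and was not called (-0.08 ± 0.24, adjusted p = 0.797). Region 7 of Ski (chr4:155262419-155263896, intron, 44507 bp from the 5′ end) measured 0.655, 0.618 and 0.449 in the control and 1.09, 1.04 and 1.11 in the HADA libraries. Its log2 difference of 0.93 ± 0.19 (1.9-fold) had the smallest p of the 30 regions (adjusted p = 0.0121) and was also called by fold rank (adjusted p = 0.0416). Region 9 (chr4:155246546-155248093) measured 1.91, 1.55 and 1.73 against 2.51, 2.49 and 2.46. The log2 difference was 0.53 ± 0.16 (adjusted p = 0.034). Of the 6 fits with 1 library left out only the one without control 1 called it (adjusted p = 0.0298 to 0.109), and it was not called by fold rank (adjusted p = 0.581). Regions 2, 6 and 8 were not called, at -0.06 ± 0.19, -0.40 ± 0.20 and -0.25 ± 0.18, and region 6 was called lower once control 3 was left out (-0.60, adjusted p = 0.0327).

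Skil, the paralog of Ski, measured 2.74, 2.96 and 3.8 in the control and 2.9, 2.55 and 2.73 in the HADA libraries at its start (chr3:31147868-31150066; log2 difference -0.20 ± 0.18, adjusted p = 0.392). Its intronic region 2 was listed in all control libraries, at pileups of 39, 20 and 48, and in HADA 1 alone at 18. Smurf2, which marks the receptors and SMAD proteins for degradation, measured 3.4, 3.36 and 5.06 in the control and 3.34, 2.52 and 2.33 in the HADA libraries at its start (chr11:106810425-106811986). The groups did not overlap, by a narrow margin, and the log2 difference of -0.52 ± 0.23 was not called (adjusted p = 0.103). Its single distal region was listed in HADA 3 alone, at a pileup of 11.

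The height of each further shared region was also set against the tallest start region of its own gene within the same library, a ratio that no constant factor per library can move. This comparison was chosen after the values had been seen. Of 20 such ratios, 5 (25%) were higher and 3 (15%) lower in every HADA library than in every control library, beside 23.8% and 31.6% of 6524 ratios over all protein-coding genes. The 5 were regions 5 and 8 of Tgfbr2, region 10 of Smad3 and regions 7 and 9 of Ski, and the 3 were region 10 of Tgfbr2 and regions 4 and 9 of Smad3. For region 8 of Tgfbr2 the log2 ratio was -2.64 ± 0.67 in the control and -1.38 ± 0.16 in the HADA group (mean ± SD, n = 3; exact permutation test, p = 0.1). For region 10 of Tgfbr2 it was 0.62 ± 0.55 and -0.84 ± 0.39, so that the region at the 3′ end stood above the start region in the control libraries and below it in the HADA libraries. Region 6 of Smad3 fell no more than the start region of Smad3 beyond the spread (-1.20 ± 0.18 and -1.48 ± 0.31; exact permutation test, p = 0.2).

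A further list of 76 pathway genes, grouped by role, held 216 regions, of which 90 were shared. Of these 19 (21.1%) were higher in HADA and 11 (12.2%) lower, with a median log2 difference of 0.08, against the 17.9% and 24.1% of all shared regions. Among all 216, 19 (8.8%) were HADA-only and 0 control-only, beside 7.01% and 1.88% of all regions. The genes of latency and activation of the ligand had 2 higher and 5 lower of 12, the other ligands 1 and 0 of 5, the other receptors 1 and 0 of 10, the other SMADs 1 and 0 of 5, the ubiquitin ligases and other regulators 6 and 5 of 28, the coactivators 0 and 0 of 3, the non-SMAD branch 3 and 0 of 7, and the known target genes 5 and 1 of 20.

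The 3 genes of this list with the smallest p in the higher direction were Map3k7, Pmepa1 and Id3. A region of Map3k7, which encodes the kinase TAK1 of the non-SMAD branch, measured 0.621, 0.527 and 0.327 in the control and 1.28, 1.56 and 1.14 in the HADA libraries (log2 difference 1.47 ± 0.26, adjusted p = 0.00999). A region of Pmepa1, a feedback inhibitor of the pathway, rose by 1.19 ± 0.24 (adjusted p = 0.0112), and the start of Id3, a target gene, by 1.05 ± 0.22 (adjusted p = 0.0124). The 3 lower ones were at Id1, Furin and Tgif2. The start of Id1, another target gene, measured 1.41, 1.33 and 1.9 against 0.75, 0.688 and 0.728 (fell by 1.08 ± 0.19, adjusted p = 0.0096). A region near a start of Furin, the protease that cleaves the TGF-beta precursor, fell by 1.30 ± 0.24 (adjusted p = 0.0102), and the start of Tgif2, a SMAD corepressor, by 1.93 ± 0.45 (adjusted p = 0.0155). The tallest HADA-only regions lay in the receptor genes Acvr1b, with pileups of 73, 66 and 60, and Acvr1, with 62, 59 and 48, and in the ubiquitin ligase gene Nedd4l, with 63, 45 and 55.

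In the 300 bases around the summit, the member start regions had a median GC content of 67.3% and 25 CpG sites. All regions within 3 kb of any annotated start had 54.7% and 8. The member distal regions had 50.8% and 3, against 47.3% and 3 in all regions further from any start. Motifs were searched on both strands. The SMAD motif CAGAC was found in 34 of the 55 windows (61.8%, against 50.1% of all regions). It was in 11 of the 23 start windows (51.1% of all start regions) and 23 of the 32 distal windows (49.3% of all distal regions). The palindrome GTCTAGAC was in 0 of 55 (0.219% of all) and GGCGCC in 5 (9.09%; 7.46%). SP/KLF matches (GGGCGGG) were in 12 (21.8%; 12.9%), RUNX matches (TGTGGTT) in 8 (14.5%; 10.2%), E-box matches (CACGTG) in 7 (12.7%; 5.48%), AP-1 matches (TGANTCA) in 4 (7.27%; 8.33%), ETS matches (CCGGAAG) in 1 (1.82%; 5.81%) and the CTCF core in 0 (2.18%). SP/KLF matches were in 10 start and 2 distal windows, against 23.6% and 4.15% of all start and distal regions. E-box matches were in 5 and 2, against 7.15% and 4.11%. Of the regions printed above, region 7 of Ski held 2 matches to CAGAC. Region 8 of Tgfbr2 held 1, beside a RUNX, an SP/KLF and an E-box match. The bases before the start of Tgfb1 held 3 SP/KLF matches, and the window at its summit, not printed, also held a CAGAC match. A match describes letters in a window and not a bound site.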

How the data were processed

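ATAC-seq peak lists of 3 control and 3 HADA libraries were analysed. Per the labels and the study's methods, the authors' steps were trimming (Trimmomatic), alignment to GRCm39 (Bowtie2), removal of duplicates (Picard) and peak calling in each library (MACS2); peak-calling options and any shift for the transposase are not given in the sources used here. The deposited columns hold a score, the fold enrichment at the summit as a ratio over local background, and −log10 p and q values. All peaks lay within GRCm39 chromosomes, and a start was annotated within 100 bp of 22.1% of summits (2.06% after a shift of 100 kb).

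From the deposited fold and −log10 p the whole-number pileup and local background at each summit were solved. Read depth is unknown, so no counting intervals are given. Heights were log2 pileups centred on each library's median shared region and compared with limma 3.58.1 in R 4.3.3 with Benjamini-Hochberg adjustment over 23970 regions; single values were compared by exact permutation. On simulated data the fit recovered large changes, or moderate changes shared by many regions, but not a moderate change confined to few regions, so a call here depends partly on how many other regions changed. Named regions were the start regions of each gene, called regions, group-only regions and the tallest distal region of each gene; of the other pathway genes, the 3 with the smallest p in each direction and the 3 tallest group-only regions. The sequences shown were limited to 7 after values had been seen. The genes and lists were chosen with earlier results of these data known.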

Additional observations from a re-analysis of the deposited data

How the results depend on the processing

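The number of pathway regions called depended on the measure and on single libraries. Quantile normalisation, an intensity trend in limma, peaks of −log10 q of at least 5 and clusters of summits within 250 bp all gave 6 higher and 4 lower, of 27 regions tested in the last 2 settings and of 30 in the others. Over all regions these settings called 22% and 17.2%, 18.4% and 24.5%, 19.3% and 22.3%, and 17.8% and 22.5%. By fold rank 1 was higher and 0 lower (6.57% and 4.78% of all). With pileup over background 9 were higher and 1 lower (31% and 18.3% of all shared regions), and the median log2 difference of the shared pathway regions moved from -0.07 to 0.31, beside 0.34 for all shared regions. Leaving out 1 library at a time gave 0 to 6 higher and 0 to 5 lower of 30 to 33 regions tested. The counts were 0 and 0 without HADA 2 and 2 and 0 without HADA 3. None of the 10 called differences changed sign by fold rank, by the other scalings, with the stricter peaks, with the block or without any 1 library; the trend leaves them as they are, and they were not compared for summit clusters. The median ratio centring, added after seeing the data, gave 5 and 4. The ratio to the start region, added likewise, set 5 apart as higher and 3 as lower. A replicate block gave 3 higher and 4 lower (12.5% and 23.6% of all); the replicate numbers did not pair the samples (correlations of deviations -0.08, 0.08 and -0.38), and 0 of 6 libraries correlated best with its own number. The HADA-only and control-only regions were 0 and 0 with an equal number of peaks per library (5.84% and 4.47% of all regions), 3 and 0 with −log10 q of at least 5 (8.59% and 2.1%), and 2 to 4 and 2 to 3 when 1 library was left out (7.54% to 11.6% and 2.34% to 3.63%). The difference in peaks per 10000 was 0.314 with −log10 q of at least 5, 0.294 with an equal number of peaks and 0.349 for starts alone, and -0.882 to 0.0889 when 1 library was left out, positive without control 3. The cause of these changes was not tested.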
